A study of Mus musculus with 8 samples.

Results

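Matrix metalloproteinases (MMPs), the ADAM and ADAMTS proteases, the ADAMTS-like proteins and the tissue inhibitors of metalloproteinases (TIMPs) were taken from the expression table by gene symbol, as every *Mmp*, *Timp*, *Adam*, *Adamts* or *Adamtsl* name that ends in a number with or without 1 letter. The table of 18990 genes holds 55 of them, of which 9 encode secreted MMPs, 7 membrane-anchored MMPs, 14 ADAMs, 17 ADAMTS proteases, 4 ADAMTS-like proteins and 4 TIMPs. With a mean of at least 1 CPM (reads scaled by library size) over the 8 libraries required, 44 of the 55 genes were tested and 11 were not.

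The cells were primary wild-type C57/BL6 mouse embryonic fibroblasts (MEFs). All of them carried lentiviruses for rtTA and for tet-STEMCCA, a cassette from which doxycycline induces the mouse reprogramming factors OCT4, SOX2, KLF4 and MYC, so all groups share the transgenes. All also received doxycycline at 2 µg per mL, the GSK3 inhibitor chiron at 3 µM, the TGF-beta receptor inhibitor Alk5i at 0.25 µM, ascorbic acid at 50 µg per mL and LIF. Cells were transfected with siRNA pools at 40 nM against *Ncor1*, which encodes a nuclear receptor corepressor, or against *Oct4* (*Pou5f1*), and RNA was sequenced at day 3 and day 6 with 2 biological replicates per group. Libraries of cells with a non-targeting siRNA were not used, so every value compares the knockdowns with each other or the days with each other. As each library is a bulk culture on its way from fibroblast to pluripotent cell, fewer cells of a type and less RNA per cell cannot be told apart.

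MMPs and ADAMTS proteases are zinc-dependent enzymes that cut collagens, proteoglycans and other matrix proteins, and most are made as inactive proenzymes. ADAMs are mainly membrane proteins that release growth factors, receptors and adhesion molecules from the cell surface, and several lack a working catalytic site. ADAMTS-like proteins resemble the non-catalytic part of ADAMTS proteases and bind microfibrils and other matrix. TIMPs block the active site of MMPs, and TIMP3 also blocks several ADAM and ADAMTS proteases. Fibroblasts are a main source of these proteins, which remodel the matrix around them.

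Library depth was 7735742 to 16445192 reads on genes, and 3 reads corresponded to 0.174 to 0.380 CPM. The non-coding gene *Gm26917* took between 15.5% and 16.6% of the reads in the libraries of day 3. At day 6 it took 21.7% and 20.3% in *siNcor1* and 29.1% and 23.9% in *siOct4*, so its share differed between the groups compared. *Ncor1* stood at 7.08 and 7.20 on the log2-cpm scale in *siNcor1* and at 7.82 and 7.94 in *siOct4* at day 3, a difference of 0.74 (adjusted p = 0.0139), whereas at day 6 it was 7.26 and 7.28 against 7.33 and 7.13 (adjusted p = 0.81). *Pou5f1* stood at 7.63 and 7.68 in *siNcor1* and at 7.53 and 7.62 in the other group at day 3, and at 7.55 and 7.32 against 9.45 and 8.97 at day 6, and was therefore higher, by 1.78 (adjusted p = 1.1e-04), in the cells that received siRNAs against it. The table does not separate endogenous from cassette-derived *Pou5f1*. No library was taken before day 3, so an earlier knockdown that was gone by then cannot be seen here. The libraries of cells that received siRNAs against *Oct4* are called the libraries labelled *siOct4* below. Markers of fibroblasts (12 of 12 listed) summed at day 3 to 7544 to 7595 CPM in *siNcor1* against 10399 to 12148 CPM in the libraries labelled *siOct4*, and at day 6 to 5638 to 6063 against 3162 to 3339 CPM. The single markers did not all follow the sum. From day 3 to day 6 in *siNcor1*, 6 were called higher and 3 lower (13.8% and 20.9% of all genes), with a median log2 fold change of 0.43. In the libraries labelled *siOct4* 2 were called higher and 7 lower (22.2% and 30.5% of all genes), with a median of −0.59. Epithelial markers (8 of 8) summed to 57.3 to 58.9 and 17.9 to 19.6 CPM at day 3, and to 694 to 733 and 297 to 321 CPM at day 6. Both sums differed between the knockdowns and between the days, and their part in the results on proteases and inhibitors was not tested. Macrophage markers, of which 6 of 10 are in the table, summed to between 7.31 and 15.0 CPM in every library. Endothelial markers (6 of 8) summed to 41.2 to 44.8 CPM at day 3 and 17.0 to 21.9 CPM at day 6, when *Emcn* was at 0 in both groups. Only 1 of these 6 had a mean of at least 1 CPM and was tested. *Des* and *Acta1*, the 2 of 6 muscle markers in the table, summed to between 15.3 and 116 CPM. Exons of *Adam1a*, *Adam8*, *Adam15*, *Adam17*, *Adam19*, *Adamts4*, *Adamts7*, *Adamts8*, *Adamts9*, *Mmp11*, *Mmp19*, *Mmp24*, *Mmp28*, *Timp3* and *Timp4* overlap those of a gene on the other strand, and how reads were assigned by strand is not given in the sources used here, so their counts are uncertain to that extent.

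At day 6 the libraries labelled *siOct4* held less RNA for 27 of the 44 tested genes than those of *siNcor1* (all 3 tested TIMPs, 7 of 12 MMPs, 6 of 11 ADAMs, 8 of 14 ADAMTS proteases and 3 of 4 ADAMTS-like genes), and more for 1, *Adamts20*. Of all 13866 genes tested, 30.7% were called in either direction at that day, 18.6% lower and 12.1% higher. At day 3 no member was called between the knockdowns.

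**Figure D1:**
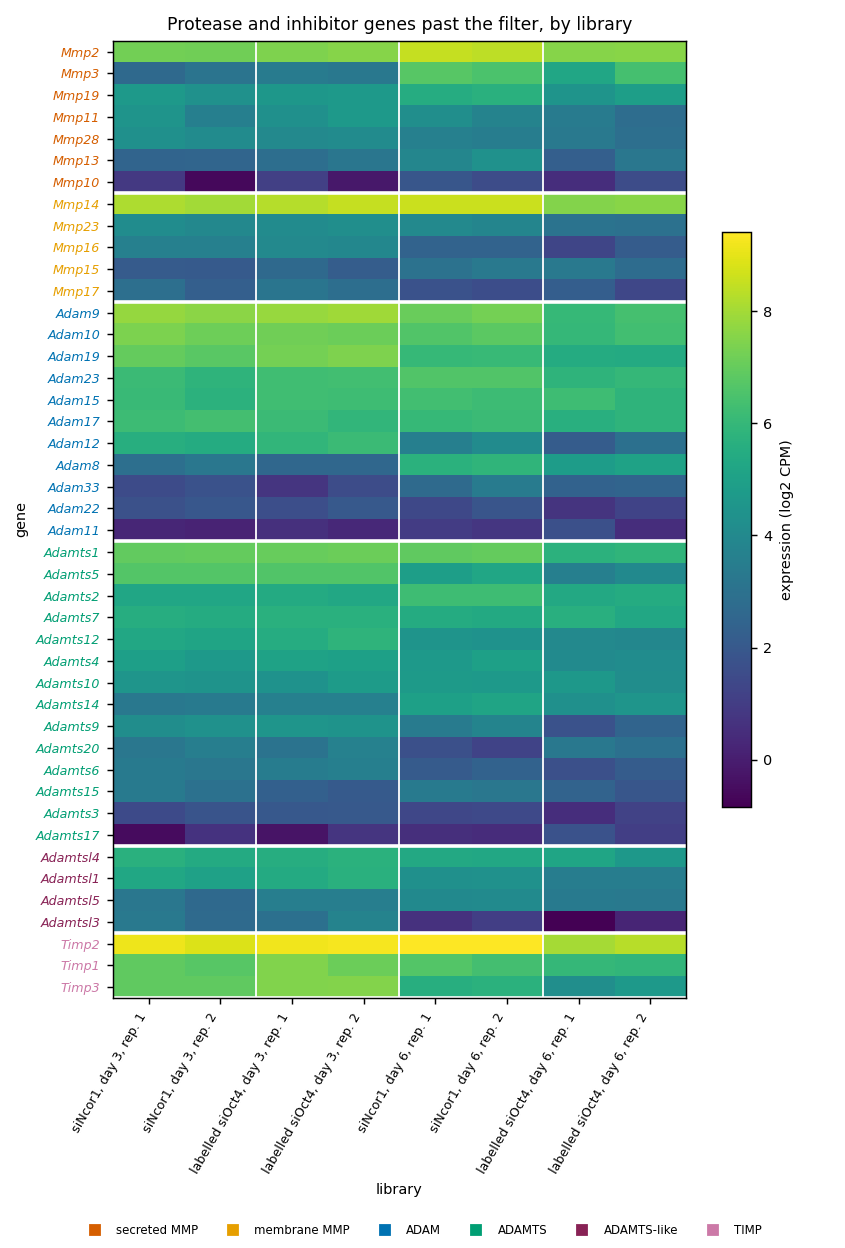
Expression (colour, log2-cpm) of the 44 tested genes (rows, coloured by family) in the 8 libraries (columns). *Timp2*, *Mmp14* and *Mmp2* are the brightest rows on average, and *Mmp3* and *Adam8* are brighter in all 4 libraries of day 6 than in the 4 of day 3.

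Per kb of exon, *Timp2* and *Timp1* were the most abundant transcripts of the set in 7 of 8 libraries, and in the remaining library, replicate 2 of *siNcor1* at day 6, *Mmp2* stood between them. The 4 TIMPs together summed at day 3 to 297 and 255 CPM per kb in *siNcor1*, against 371 and 338 CPM per kb in the libraries labelled *siOct4*, and to 297 and 269 against 142 and 152 CPM per kb at day 6. The 16 MMPs summed to 130 and 117 against 143 and 158 CPM per kb at day 3, and to 273 and 255 against 129 and 161 CPM per kb at day 6. The MMP sum was thus higher at day 6 than at day 3 in *siNcor1* with no overlap, and overlapped between the days in the libraries labelled *siOct4*, where it was the TIMP sum that was lower at day 6 with no overlap. The ratio of TIMP to MMP at day 3 was 2.28 and 2.19 in *siNcor1*, against 2.59 and 2.14 in the libraries labelled *siOct4*, and 1.09 and 1.05 against 1.10 and 0.943 at day 6. All 4 ratios of day 6 were under all 4 of day 3, and within each day the knockdowns overlapped. With 2 libraries a group, the two-sided exact permutation test cannot go below p = 0.333, which is what it gave for the days within each knockdown, and it gave p = 1 between the knockdowns at each day. *Mmp14* and *Mmp2* made up 56.0% to 73.6% of the MMP sum, and *Timp2* 40.8% to 63.6% of the TIMP sum.

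**Figure D2:**
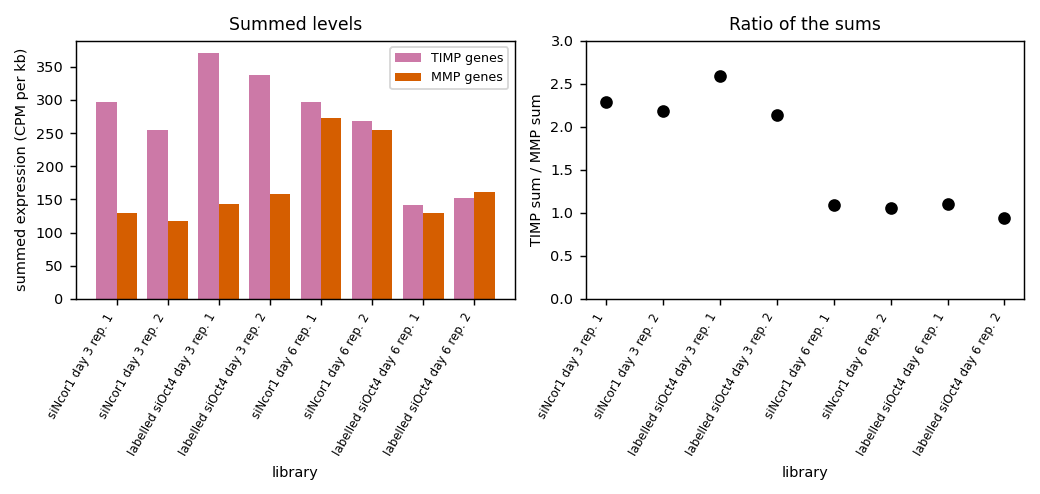
Left, summed expression (CPM per kb of exon) of the TIMP genes and of the MMP genes in each library as bars from 0. Right, the ratio of the sums in each library as points, between 2.14 and 2.59 at day 3 and between 0.943 and 1.10 at day 6.

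The gene of the stromelysin MMP3 lies on chromosome 9 (GRCm38, 7445822 to 7455975, plus strand), between that of the collagenase MMP13 (7272514 to 7283331) and those of the stromelysin MMP10 (7502352 to 7510240) and of MMP27 (7571396 to 7581885), all on the same strand. *Mmp3*, *Mmp10* and *Mmp13* are the members of this gene cluster that were past the filter. All 3 were called higher at day 6 than at day 3 in *siNcor1* (13.8% of all genes), with the call of *Mmp10* lost on single libraries. In the libraries labelled *siOct4* only *Mmp3* was called higher (22.2% of all genes), and *Mmp10* and *Mmp13* were not called. The RefSeq promoters of the 3 genes are shown because the same short letters recur in them. Promoters were matched for 35 of the 55 genes (build GRCm38.p6), and the 250 bases before each start were searched on both strands for TGANTCA, which is the motif that AP-1 factors bind, and for TATAAA. Capitals mark the matches.
Mmp3, chr9:7445572-7445821 (+): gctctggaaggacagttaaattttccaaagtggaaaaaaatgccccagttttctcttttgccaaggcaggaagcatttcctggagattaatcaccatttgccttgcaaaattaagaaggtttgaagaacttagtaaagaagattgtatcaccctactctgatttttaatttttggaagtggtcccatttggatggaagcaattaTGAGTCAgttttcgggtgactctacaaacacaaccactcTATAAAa
Mmp10, chr9:7502092-7502341 (+): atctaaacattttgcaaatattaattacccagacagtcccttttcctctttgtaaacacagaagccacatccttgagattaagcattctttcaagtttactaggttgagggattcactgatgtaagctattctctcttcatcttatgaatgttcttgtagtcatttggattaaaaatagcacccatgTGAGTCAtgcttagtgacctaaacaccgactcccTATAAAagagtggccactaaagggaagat
Mmp13, chr9:7272264-7272513 (+): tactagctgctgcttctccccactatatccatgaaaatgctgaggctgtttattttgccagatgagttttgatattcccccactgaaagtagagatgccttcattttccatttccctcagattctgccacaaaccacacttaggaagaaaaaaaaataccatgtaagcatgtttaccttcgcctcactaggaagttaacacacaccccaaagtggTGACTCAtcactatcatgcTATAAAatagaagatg
The AP-1 letters start 46 bases before the start in *Mmp3*, 63 in *Mmp10* and 35 in *Mmp13*. Among the 35 members only *Adam19* also holds them, which gives 11.4%, against 7.82% of 27025 genes with a promoter. *Adam19* was called lower at day 6 than at day 3 in both knockdowns. TATAAA was found in these 3 genes and in *Adamts1*, which is again 11.4%, against 14.3% of all genes. The half-site AGGTCA, searched on both strands and bound by many nuclear receptors, was found in *Adam19*, *Adam22*, *Adamtsl5* and *Mmp10*, also 11.4%, against 15.8% of all genes. These are matches of letters and not measured binding.

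No member passed limma's test between the knockdowns at day 3, where 1.07% of all tested genes did (0.375% higher and 0.692% lower). At an unadjusted p under 0.05 there were 12 of 44 members, against 10.5% of all genes, and voom called 0. The log2 fold change, libraries labelled *siOct4* over *siNcor1*, was above 0 for 35 members and below 0 for 9, with a median of 0.25 against −0.02 over all genes. The 12 fibroblast markers had a median of 0.43, with 1 called higher and 0 lower. For 26 members both replicates were higher and for 4 both were lower than those of *siNcor1*, while 43.4% of all genes did not overlap in 1 direction or the other. The smallest adjusted p-values among the members belonged to *Adamts15* (−1.01, SE 0.23, adjusted p = 0.0685), *Adam19* (0.46, SE 0.12, adjusted p = 0.109) and *Timp3* (0.57, SE 0.15, adjusted p = 0.112). These 3 passed when replicate 1 or replicate 2 of the day 6 libraries labelled *siOct4* was left out, which lowers the shared estimate of the spread and leaves the differences of day 3 as they are (*Adamts15* adjusted p = 0.0183 and 0.0172, *Adam19* 0.0447 and 0.0449, *Timp3* 0.00954 and 0.00956).

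The inhibitors come first among the results by role. *Timp1*, on chromosome X (20870166 to 20874735), encodes a soluble inhibitor of most MMPs. In log2-cpm, as for all genes below, it stood at 6.90 and 6.74 in *siNcor1*, against 7.46 and 7.11 where labelled *siOct4*, at day 3, and at 6.69 and 6.35 against 6.01 and 5.92 at day 6. The groups did not overlap at either day, and their order was opposite at the 2 days. *Timp1* was lower by a log2 fold change of −0.55 (SE 0.15, adjusted p = 0.0177) at day 6, a call that was lost without replicate 1 of *siNcor1* at day 6 (−0.38, adjusted p = 0.16).

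*Timp2*, on chromosome 11 (118301069 to 118355740), encodes the inhibitor that also helps MMP14 to activate proMMP2. Its values were 9.17 and 8.87 in *siNcor1* against 9.20 and 9.28 at day 3, and 9.42 and 9.38 against 8.04 and 8.30 at day 6. The day 6 libraries labelled *siOct4* were the lowest of all 8, and the difference was −1.23 (SE 0.14, adjusted p = 3.6e-04). Between the days *Timp2* fell in the libraries labelled *siOct4* (−1.08, adjusted p = 8.5e-05), and its change in *siNcor1* was 0.38 (adjusted p = 0.0607), which passed without either of the day 6 libraries labelled *siOct4* (adjusted p = 0.0287 without replicate 1 and 0.0285 without replicate 2).

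*Timp3*, on chromosome 10 (86300372 to 86349506), encodes the inhibitor that stays bound to matrix. It stood at 6.91 and 6.92 against 7.45 and 7.50 at day 3, and at 5.59 and 5.69 against 4.21 and 4.68 at day 6. Levels were thus lower at day 6 in both knockdowns, with a change of −1.27 (adjusted p = 1.1e-04) in *siNcor1* and one of −3.03 (adjusted p = 1.0e-07) where the label was *siOct4*. The difference between the knockdowns at day 6 was −1.19 (SE 0.15, adjusted p = 4.4e-04). The gene on the other strand of *Timp3* is *Syn3*. *Timp4*, with 2 to 12 reads, was not tested and stood at −0.41 and −0.88 against −0.71 and −0.95 at day 3, and at 0.17 and −0.16 against −1.52 and −0.15 at day 6, with overlap at both days.

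*Mmp14* and *Mmp2* encode the membrane-bound activator and the gelatinase that it activates together with TIMP2. *Mmp14* (chromosome 14, 54431612 to 54445364) stood at 8.15 and 7.98 in *siNcor1* against 8.28 and 8.50 at day 3, and at 8.58 and 8.61 against 7.53 and 7.60 at day 6. *Mmp2* (chromosome 8, 92827291 to 92853420) stood at 7.24 and 7.18 against 7.44 and 7.55 at day 3, and at 8.52 and 8.37 against 7.56 and 7.61 at day 6. For both genes the *siNcor1* libraries were the lower of the knockdowns at day 3 and the higher at day 6, with no overlap. The day 6 differences were −1.04 (SE 0.12, adjusted p = 4.0e-04) for *Mmp14* and −0.86 (SE 0.12, adjusted p = 5.3e-04) for *Mmp2*. *Mmp2* rose between the days in *siNcor1* by 1.24 (adjusted p = 3.1e-05), with a change of 0.09 (adjusted p = 0.532) in the libraries labelled *siOct4*. *Mmp14* rose by 0.53 (adjusted p = 0.00666) in *siNcor1*, a call lost without replicate 2 of *siNcor1* at day 3 (0.45, adjusted p = 0.0756) or at day 6 (0.52, adjusted p = 0.0523), and fell by 0.83 (adjusted p = 1.9e-04) where the label was *siOct4*.

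Among the other secreted MMPs, *Mmp3* had the largest change between the days of all 44 members in *siNcor1*. In the libraries labelled *siOct4* it had the largest rise, where the largest falls of other members were greater. It stood at 2.65 and 3.11 in *siNcor1* against 3.43 and 3.27 at day 3, and at 6.75 and 6.51 against 5.21 and 6.40 at day 6. It rose in both knockdowns, by 3.75 (SE 0.30, adjusted p = 1.4e-05) and 2.46 (SE 0.30, adjusted p = 4.4e-05), and at day 6 the knockdowns did not overlap, although replicate 2 of those labelled *siOct4* was close to *siNcor1*. The day 6 difference was −0.82 (SE 0.30, adjusted p = 0.0554), and it was −1.42 (adjusted p = 4.0e-04) without that library but −0.23 (adjusted p = 0.416) without replicate 1 of the same group. It passed in 7 of the alternatives, with the replicate block (adjusted p = 0.0338) and voom (0.0408) among them.

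*Mmp13* stood at 2.48 and 2.51 against 2.87 and 3.17 at day 3, and at 3.87 and 4.34 against 2.26 and 3.24 at day 6. *Mmp19*, which encodes an MMP of wide distribution, stood at 4.67 and 4.35 against 4.59 and 4.72 at day 3, and at 5.50 and 5.65 against 4.46 and 4.92 at day 6. Both rose in *siNcor1*, by 1.61 (adjusted p = 0.00162) and 1.07 (adjusted p = 9.25e-04), and were lower at day 6 in the libraries labelled *siOct4*, by −1.35 (SE 0.29, adjusted p = 0.00552) and −0.88 (SE 0.17, adjusted p = 0.00368). Without replicate 2 of *siNcor1* at day 6 the *Mmp13* difference was −1.12 (adjusted p = 0.0693), without replicate 1 of those labelled *siOct4* it was −0.86 (adjusted p = 0.0188), and without replicate 2 of the day 6 libraries labelled *siOct4* *Mmp13* fell between the days there (−0.76, adjusted p = 0.0196, against −0.27 and adjusted p = 0.457 with all libraries). *Mmp11*, for stromelysin-3, stood at 4.46 and 3.57 against 4.31 and 4.68 at day 3, and at 4.25 and 3.74 against 3.43 and 2.84 at day 6. Its day 6 difference of −0.85 (SE 0.29, adjusted p = 0.0457) did not pass in 5 of the 8 fits with 1 library left out, where adjusted p reached 0.253 without replicate 1 of *siNcor1* at day 6, and it was −0.56 (adjusted p = 0.189) without replicate 2 of those labelled *siOct4*. *Mmp10* rose in *siNcor1* (1.60, adjusted p = 0.0402), a call lost without replicate 2 of *siNcor1* at day 3 (0.87, adjusted p = 0.347) or replicate 1 (1.42, adjusted p = 0.182) or 2 (1.79, adjusted p = 0.0899) at day 6. *Mmp28*, for epilysin, fell in both knockdowns (−0.64, adjusted p = 0.0178, and −0.94, adjusted p = 0.00112), and in *siNcor1* the call was lost without any of its 4 libraries, with adjusted p-values from 0.0523 to 0.128. The day 6 difference of *Mmp28* (−0.45, adjusted p = 0.0801) passed without replicate 1 of those labelled *siOct4* (−0.66, adjusted p = 0.0187). *Mmp9*, for gelatinase B, had 0 to 15 reads and *Mmp27* 0 to 6, and neither was tested.

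The remaining membrane MMPs moved less alike. *Mmp23*, whose product is held by an amino-terminal anchor, stood at 4.13 and 3.95 against 4.12 and 4.22 at day 3, and at 3.99 and 3.81 against 3.08 and 2.99 at day 6 (−0.86, SE 0.16, adjusted p = 0.00274). *Mmp16*, for MT3-MMP, stood at 3.62 and 3.62 against 3.97 and 3.89 at day 3, and at 2.42 and 2.44 against 1.30 and 2.13 at day 6. It fell between the days in both knockdowns (−1.19, adjusted p = 0.00358, and −2.22, adjusted p = 2.4e-05). Its day 6 difference (−0.71, SE 0.25, adjusted p = 0.0469) was −0.30 (adjusted p = 0.284) without replicate 1 of the libraries labelled *siOct4* and −1.13 (adjusted p = 0.00165) without replicate 2, and did not pass in 7 of the 8 fits with 1 library left out. *Mmp15*, for MT2-MMP, rose in *siNcor1* (1.10, adjusted p = 0.00511, and 0.0504 without its replicate 2 at day 6) and had a change of 0.62 (adjusted p = 0.0509) in the other knockdown, which passed without replicate 1 at day 3 (0.0327) or replicate 2 at day 6 (0.0139). *Mmp17*, for the GPI-anchored MT4-MMP, fell in both (−0.92, adjusted p = 0.0389, and −1.22, adjusted p = 0.00606), and the call in *siNcor1* was lost in 6 of the 8 fits with 1 library left out, with −0.61 (adjusted p = 0.276) without replicate 1 of *siNcor1* at day 3. *Mmp24* and *Mmp25* had at most 11 and 7 reads.

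**Figure D3:**
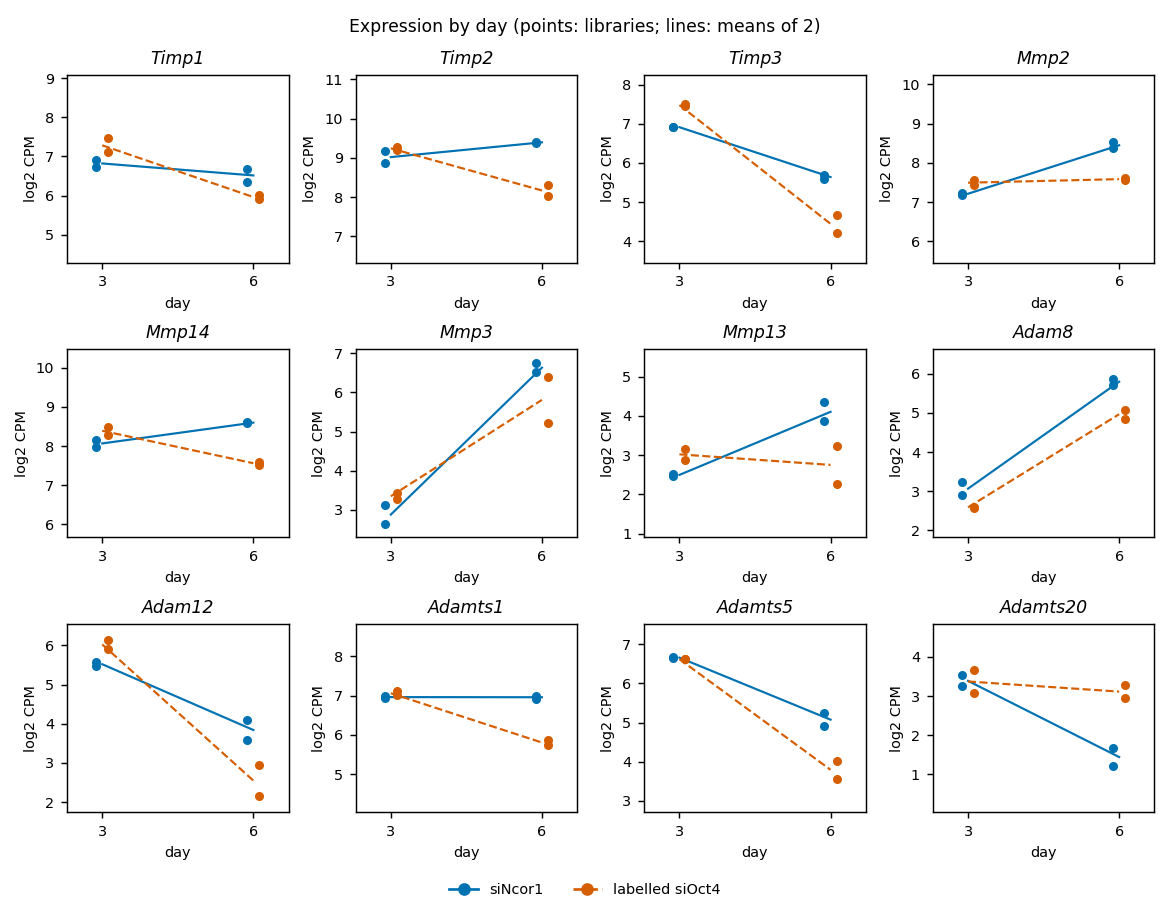
Expression (log2-cpm, each panel spanning the same height) of 12 genes by day. Points are libraries and lines join the means of 2, solid for *siNcor1* and dashed for the libraries labelled *siOct4*, whose line ends under that of *siNcor1* at day 6 in every panel but that of *Adamts20*.

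*Adam10* and *Adam17* encode ADAMs with sheddase activity. Their means over the 8 libraries were 118 and 65.7 CPM, under the 167 CPM of *Adam9*. *Adam10* stood at 7.38 and 7.15 against 7.19 and 7.10 at day 3, and at 6.64 and 6.81 against 6.00 and 6.30 at day 6. *Adam17*, which encodes the TNF-converting enzyme, stood at 6.20 and 6.33 against 6.13 and 5.92 at day 3, and at 6.01 and 6.14 against 5.62 and 5.84 at day 6. *Adam10* was lower at day 6 (−0.58, SE 0.14, adjusted p = 0.00886), a call lost without replicate 2 of *siNcor1* (−0.49, adjusted p = 0.0995). The difference of *Adam17* was −0.34 (SE 0.13, adjusted p = 0.0706), and it passed without replicate 2 of the libraries labelled *siOct4* (−0.45, adjusted p = 0.0259). Between the days *Adam10* fell in *siNcor1* (−0.54, adjusted p = 0.0104) and where the label was *siOct4* (−0.99, adjusted p = 1.0e-04), and the call in *siNcor1* was lost without its replicate 1 at day 3 (adjusted p = 0.0947) or at day 6 (0.103).

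*Adam9*, for a widely expressed sheddase, stood at 7.79 and 7.64 against 7.85 and 7.96 at day 3, and at 7.07 and 7.27 against 6.02 and 6.39 at day 6. *Adam12*, for meltrin alpha of mesenchymal cells, stood at 5.57 and 5.47 against 5.92 and 6.13 at day 3, and at 3.58 and 4.10 against 2.16 and 2.94 at day 6. *Adam19*, for meltrin beta, stood at 6.99 and 6.79 against 7.27 and 7.43 at day 3, and at 6.03 and 6.07 against 5.46 and 5.43 at day 6. In all 3 genes the libraries labelled *siOct4* were the highest group at day 3 and the lowest at day 6. The day 6 differences were −0.97 (adjusted p = 8.6e-04), −1.29 (adjusted p = 0.00271) and −0.61 (adjusted p = 0.00373), and each gene fell between the days in both knockdowns, with −1.68 (adjusted p = 4.3e-04) in *siNcor1* against −3.47 (adjusted p = 8.2e-07) for *Adam12*. For *Adam9* in *siNcor1* (−0.54, adjusted p = 0.012) that call was lost without replicate 1 at day 3 (−0.47, adjusted p = 0.0896) or at day 6 (−0.44, adjusted p = 0.118).

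*Adam8*, known from leukocytes and inflamed tissue, went the other way between the days. It stood at 2.91 and 3.23 against 2.58 and 2.61 at day 3, and at 5.72 and 5.87 against 4.85 and 5.08 at day 6. In *siNcor1* its rise was 2.73 (adjusted p = 1.6e-06), and the rise was 2.37 (adjusted p = 8.8e-07) in the libraries labelled *siOct4*, which were the lower group at both days, called at day 6 only (−0.83, SE 0.17, adjusted p = 0.0038, and adjusted p = 0.0552 without replicate 2 of *siNcor1*). The summed macrophage markers were also higher at day 6, with no overlap, at 7.31 to 12.5 CPM in the 4 libraries of day 3 and 14.2 to 15.0 CPM in the 4 of day 6. Of the 4 tested, 1 rose in *siNcor1* (13.8% of all genes), and 2 rose and 1 fell in the other knockdown (22.2% and 30.5%). *Adam8* alone had means of 8.29 CPM at day 3 and 55.5 CPM at day 6 in *siNcor1*. In the libraries labelled *siOct4* its means were 5.89 and 31.2 CPM. The part of the macrophage markers in the result was not tested. *Adam23*, whose product lacks protease activity and binds integrins, stood at 6.15 and 5.82 against 6.28 and 6.32 at day 3, and at 6.63 and 6.65 against 5.83 and 5.98 at day 6. It was lower at day 6 (−0.74, adjusted p = 0.00223), having risen in *siNcor1* (0.66, adjusted p = 0.00289). Its fall in the libraries labelled *siOct4* (−0.39, adjusted p = 0.0247) was lost when any of 3 of their 4 libraries was left out: replicate 1 of day 3 (adjusted p = 0.0786), replicate 2 of day 3 (0.112) or replicate 1 of day 6 (0.0829). *Adam33* rose in both knockdowns (1.44, adjusted p = 0.00455, and 1.26, adjusted p = 0.0052), and lost the calls without replicate 2 of *siNcor1* at day 6 (0.0597) and replicate 1 of those labelled *siOct4* at day 3 (0.0556). *Adam22*, for another ADAM without protease activity, fell in the libraries labelled *siOct4* (−0.85, adjusted p = 0.0335), a call lost in 4 of the 8 fits with 1 library left out (adjusted p up to 0.196, without their replicate 2 at day 3). *Adam11* and *Adam15* were called in no comparison with all libraries. Without replicate 1 of the day 6 libraries labelled *siOct4*, *Adam15* fell there (−0.40, adjusted p = 0.0449) and rose in *siNcor1* (0.32, adjusted p = 0.0493, and 0.049 without replicate 2), and the change of its difference passed (−0.72, adjusted p = 0.0187). Without replicate 2 of those libraries *Adam11* rose in them (1.21, adjusted p = 0.0202).

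Among the ADAMTS proteases that cut aggrecan and versican, *Adamts1* and *Adamts5* are neighbours on chromosome 16 (85793827 to 85803113 and 85856173 to 85901828, both minus strand). *Adamts1* stood at 6.94 and 6.99 against 7.01 and 7.11 at day 3, and at 6.92 and 7.0 against 5.75 and 5.86 at day 6. *Adamts5* stood at 6.66 and 6.65 against 6.61 and 6.62 at day 3, and at 4.91 and 5.24 against 3.57 and 4.02 at day 6. The day 6 differences were close, −1.16 (SE 0.11, adjusted p = 1.8e-04) and −1.28 (SE 0.16, adjusted p = 4.6e-04). Only *Adamts5* of the pair fell in *siNcor1* (−1.58, adjusted p = 5.3e-05), where the adjusted p of *Adamts1* was 0.984. The difference between these changes of neighbouring genes was not tested.

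*Adamts4*, the other main aggrecanase, stood at 4.93 and 4.67 against 5.07 and 4.98 at day 3, and at 4.73 and 4.99 against 4.08 and 4.16 at day 6. *Adamts9*, for a versican-cutting protease, stood at 4.20 and 4.37 against 4.53 and 4.41 at day 3, and at 3.42 and 3.79 against 1.73 and 2.46 at day 6. *Adamts15*, for another protease of this clade, stood at 3.36 and 3.00 against 2.29 and 2.07 at day 3, and at 3.35 and 3.24 against 2.41 and 1.89 at day 6. The first 2 were lower in the libraries labelled *siOct4* at day 6 only (−0.74, adjusted p = 0.00431, and −1.52, adjusted p = 0.00102), whereas those of *Adamts15* were the lowest 2 at both days (−1.15 at day 6, adjusted p = 0.00423). Without replicate 2 of *siNcor1* at day 6 the value of *Adamts4* was −0.61 (adjusted p = 0.0664).

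*Adamts20*, on chromosome 15 (94270163 to 94465418), for a protease known from coat pigmentation that cuts versican, was the exception. It stood at 3.24 and 3.53 against 3.08 and 3.66 at day 3, and at 1.67 and 1.22 against 3.27 and 2.96 at day 6. The 2 *siNcor1* libraries of day 6 were the lowest of all 8, with the other 6 between 2.96 and 3.66. The difference was 1.67 (SE 0.25, adjusted p = 9.8e-04) at day 6, and *Adamts20* fell by 1.94 in *siNcor1* (adjusted p = 2.4e-04) with a change of −0.26 (adjusted p = 0.412) in the libraries labelled *siOct4*.

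*Adamts2* and *Adamts14* encode enzymes that trim fibrillar procollagens. *Adamts2* stood at 5.24 and 5.23 against 5.44 and 5.29 at day 3, and at 6.25 and 6.23 against 5.36 and 5.46 at day 6. *Adamts14* stood at 3.25 and 3.35 against 3.64 and 3.63 at day 3, and at 4.99 and 5.14 against 4.31 and 4.49 at day 6. Both were lower at day 6 in the libraries labelled *siOct4* (−0.83, adjusted p = 7.8e-04, and −0.66, adjusted p = 0.00725), and both rose in *siNcor1* (1.00, adjusted p = 1.4e-04, and 1.76, adjusted p = 1.9e-05). *Adamts14* rose in the libraries labelled *siOct4* too (0.77, adjusted p = 0.00114), and its day 6 difference was −0.59 (adjusted p = 0.0883) without replicate 2 of *siNcor1*. *Adamts3*, of the same clade, fell in the libraries labelled *siOct4* (−1.18, adjusted p = 0.00607), and its day 6 difference (−0.54, adjusted p = 0.193) was −0.89 (adjusted p = 0.0494) without their replicate 2.

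*Adamts12*, for a protease of cartilage oligomeric matrix protein, stood at 5.31 and 5.15 against 5.51 and 5.82 at day 3, and at 4.47 and 4.39 against 4.0 and 3.92 at day 6. Its day 6 difference of −0.47 (adjusted p = 0.0318) was lost without any of 3 libraries of that day: replicate 1 of *siNcor1* (adjusted p = 0.146), replicate 2 of *siNcor1* (0.117) or replicate 2 of those labelled *siOct4* (0.061). *Adamts6*, for a protease of microfibrils, fell in both knockdowns (−1.04, adjusted p = 0.00403, and −1.62, adjusted p = 1.0e-04), and *Adamts7*, *Adamts10* and *Adamts17* were called in no comparison with all libraries. In the libraries labelled *siOct4*, *Adamts7* fell without replicate 1 of day 6 (−0.38, adjusted p = 0.0284), and the change of *Adamts17* (1.18, adjusted p = 0.0551) passed in 4 of the 8 fits with 1 library left out. *Adamts8*, *Adamts16* and *Adamts18* had at most 12, 9 and 3 reads, and *Adam1a*, *Adam4* and *Adam5* at most 26, 20 and 12, and none of these 6 was tested.

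The ADAMTS-like genes encode matrix proteins with no protease domain. *Adamtsl1* stood at 5.28 and 5.03 against 5.44 and 5.68 at day 3, and at 4.31 and 4.37 against 3.49 and 3.49 at day 6. *Adamtsl3* stood at 3.32 and 2.69 against 2.96 and 3.75 at day 3, and at 0.62 and 1.05 against −0.84 and 0.21 at day 6. *Adamtsl5* stood at 3.24 and 2.65 against 3.53 and 3.56 at day 3, and at 4.03 and 4.07 against 3.35 and 3.29 at day 6. The 3 were lower in the day 6 libraries labelled *siOct4*, by −0.85 (adjusted p = 0.00195), −1.15 (adjusted p = 0.0434) and −0.73 (adjusted p = 0.0177). *Adamtsl3*, with 4 to 159 reads, lost its call in 5 of the 8 fits with 1 library left out and was −0.63 (adjusted p = 0.227) without replicate 1 of those libraries. *Adamtsl5* lost it without replicate 1 (adjusted p = 0.0698) or replicate 2 (0.109) of *siNcor1* at day 6. *Adamtsl4* fell in the libraries labelled *siOct4* between the days (−0.74, adjusted p = 0.00389), and its day 6 difference (−0.43, adjusted p = 0.0839) was −0.71 (adjusted p = 0.00474) without replicate 1 of those libraries.

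**Figure D4:**
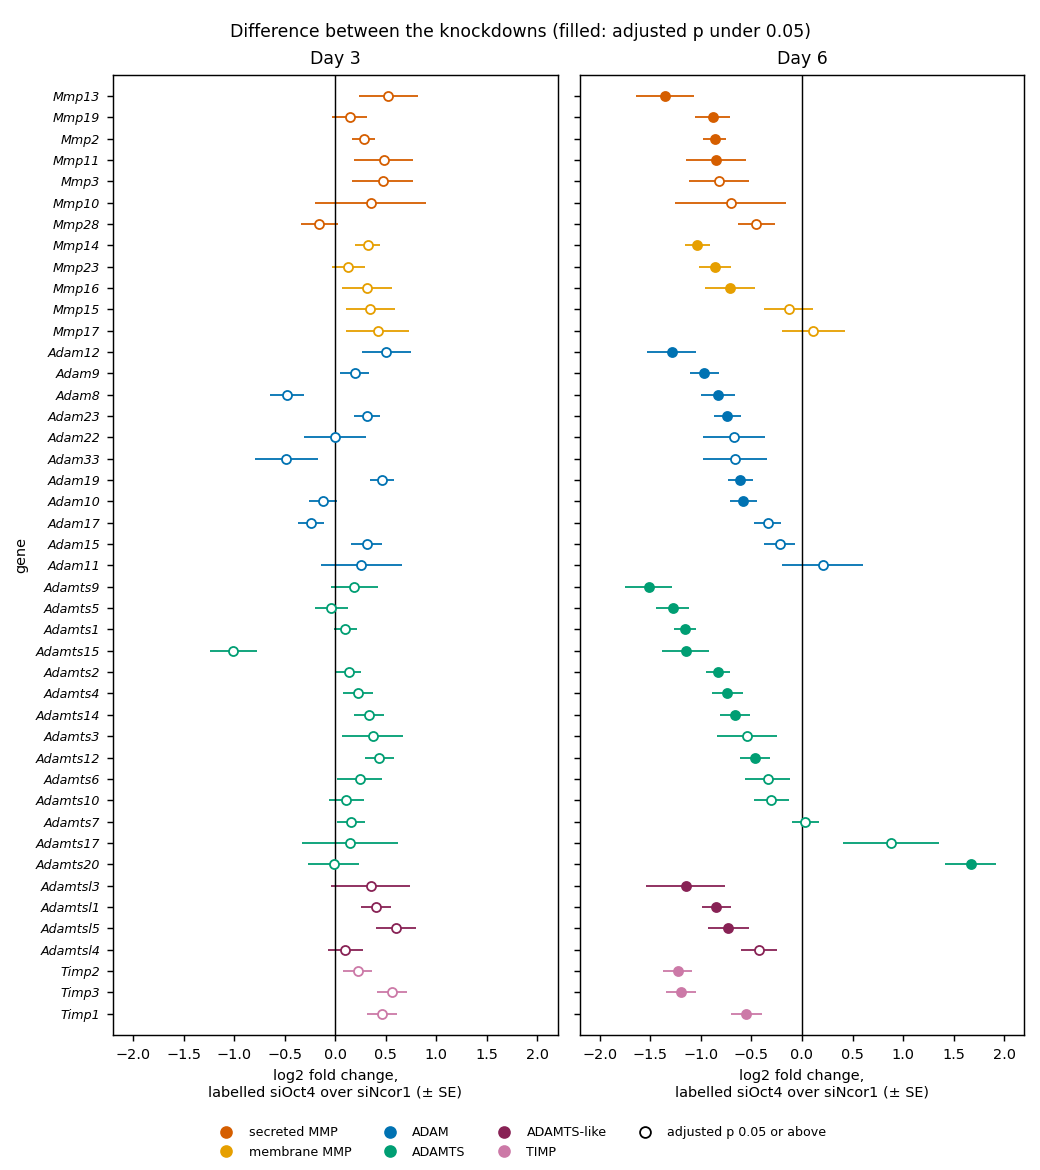
Log2 fold change, libraries labelled *siOct4* over *siNcor1*, with its SE, for the 44 tested genes at day 3 (left) and day 6 (right). Filled points passed at an adjusted p under 0.05: none at day 3, and at day 6 27 points left of 0 and that of *Adamts20* right of it.

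Over the 44 members, the median difference at day 6 was −0.72, against −0.03 over all genes, with 39 members below 0. The 12 fibroblast markers were shifted alike, with a median of −0.74. Of these markers 9 were called lower and 0 higher (18.6% and 12.1% of all genes). In 35 members both libraries labelled *siOct4* were under both of *siNcor1*, and in 2 they were above, where 64.7% of all genes did not overlap. The 28 calls became 18 without replicate 2 of *siNcor1* at day 6, a fit in which the share of all genes called also went from 30.7% to 10.1%.

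Between the days, 13 members rose and 15 fell in *siNcor1* (background 13.8% higher and 20.9% lower, 34.8% in all), and 4 rose and 25 fell in the libraries labelled *siOct4* (22.2% and 30.5%, 52.7% in all). Both replicates of day 6 were above those of day 3 for 17 members and under them for 20 in *siNcor1* (73.1% of all genes did not overlap), and for 7 and 29 in the other knockdown (74.8%). The medians were −0.06 and −0.84, against −0.07 and −0.08 over all genes. In *siNcor1* 5 of 7 secreted MMPs were higher (*Mmp2*, *Mmp3*, *Mmp10*, *Mmp13* and *Mmp19*, with the call of *Mmp10* lost on single libraries) and 1 was lower, beside 2 of 5 membrane MMPs, 3 of 11 ADAMs and 2 of 14 ADAMTS proteases that were higher. The difference between the families was not tested. The genes called higher in both knockdowns were *Mmp3*, *Adam8*, *Adam33* and *Adamts14*. Lower in both were 14, among them *Timp3*, *Adam9*, *Adam10*, *Adam12*, *Adam19*, *Adamts5* and *Adamtsl3*. *Adamts9*, also among the 14, lost its call in *siNcor1* (−0.67) in limma fits without trend (adjusted p = 0.0819), without the filter (0.0537) and without *Gm26917* (0.0575). That call was also lost without any single library of *siNcor1*, with log2 fold changes from −0.49 to −0.86. *Mmp14* and *Adam23* rose in *siNcor1* and fell in the libraries labelled *siOct4*. Called in one knockdown and not in the other were 17 genes, of which 7 rose in *siNcor1*, 1 fell there (*Adamts20*) and 9 fell in the libraries labelled *siOct4*, *Timp1*, *Timp2* and *Adamts1* among them. The 27 genes that were lower at day 6 in the libraries labelled *siOct4* comprised 9 that had risen in *siNcor1*, 11 that had fallen and 7 not called there.

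The test of whether the difference between the knockdowns changed from day 3 to day 6 called 24 members, 23 of them towards lower values in the libraries labelled *siOct4*, while 20.7% of all genes were called, 12.9% in that direction and 7.77% in the other. Of the 12 fibroblast markers 10 were called towards lower values and 0 in the other direction, with a median change of −1.14. Over the 44 members the median change was −0.99, against 0.01 over all genes, and 42 of 44 members were below 0. The largest were *Mmp13* (−1.88, SE 0.41, adjusted p = 0.00905), *Adam12* (−1.80, SE 0.34, adjusted p = 0.00426), *Timp3* (−1.76, SE 0.21, adjusted p = 6.4e-04) and *Adamts9* (−1.70, SE 0.33, adjusted p = 0.00481), and *Adamts20* alone changed upwards (1.68, SE 0.36, adjusted p = 0.00803). For *Adam8* (−0.35, adjusted p = 0.302) and *Adamts15* (−0.14, adjusted p = 0.796) the test did not find that the difference at day 6 was another than at day 3. The 24 calls became 15, and the share of all genes called went from 20.7% to 7.28%, without replicate 2 of *siNcor1* at day 3, where those lost were *Timp1* (adjusted p = 0.0541), *Mmp3* (0.0916), *Mmp11* (0.193), *Mmp13* (0.0508), *Mmp19* (0.0857), *Mmp23* (0.0663), *Adamts4* (0.0619), *Adamts12* (0.0682) and *Adamts20* (0.0586). The call of *Mmp13* was also lost without replicate 2 of *siNcor1* at day 6 (0.0505).

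**Figure D5:**
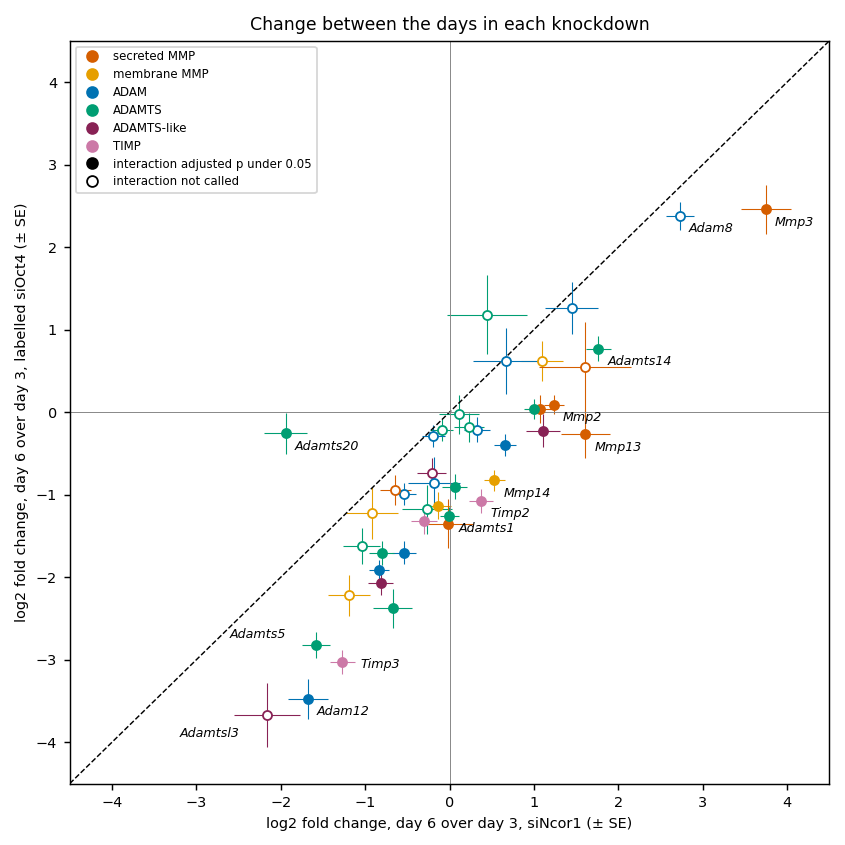
Log2 fold change from day 3 to day 6 in the libraries labelled *siOct4* (vertical) against that in *siNcor1* (horizontal), each with its SE, for the 44 tested genes. The dashed line marks equal change, 42 of 44 points lie under it, and filled points are the 24 whose difference between the knockdowns changed between the days.

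Genes that work with these proteases were taken from 6 lists, whose counts stand beside the 18.6% of all genes called lower and 12.1% called higher at day 6, and 0.692% and 0.375% at day 3. Of 15 tested genes that activate proenzymes or guide ADAM10, 7 were lower and 1 was higher at day 6. Those lower included the plasminogen activators *Plau* (−1.07, adjusted p = 0.0023) and *Plat* (−0.99, adjusted p = 0.0024) and the proprotein convertase *Furin* (−0.74, adjusted p = 0.0026), and of the tetraspanins that bind ADAM10 *Tspan17* was lower (−0.69, adjusted p = 0.0085). The one that was higher was *Tspan14* (0.51, adjusted p = 0.019), named after its value was seen. Without replicate 2 of *siNcor1* at day 6, *Tspan17* (0.0797) and *Tspan14* (0.116) did not pass, nor did *Tspan14* without replicate 1 (0.0746) or replicate 2 of those labelled *siOct4* (0.0607). Of 8 other inhibitors and clearance receptors 5 were lower and 0 higher. The clearance receptors *Lrp1* (−0.94, adjusted p = 0.0031) and *Lrp2* (−1.06, adjusted p = 0.0037) and the protease inhibitor *Serpine2* (−0.77, adjusted p = 0.002) were lower at day 6, and *Papln*, for an ADAMTS-like matrix protein, was lower at day 3 (−1.62, adjusted p = 0.024). The day 3 call of *Papln* was lost without any of 3 libraries of that day, replicate 1 (adjusted p = 0.189) or replicate 2 (0.213) of *siNcor1* or replicate 1 of those labelled *siOct4* (0.152), and that of *Lrp2* at day 6 without replicate 2 of *siNcor1* (0.0537).

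All 5 tested members of a list of other metalloproteinases were lower at day 6, with *Pappa2* (−1.30, adjusted p = 0.047) and *Pappa* (−0.84, adjusted p = 0.0044) for proteases of insulin-like growth factor binding proteins, *Tll1* (−1.15, adjusted p = 0.0051) for a procollagen C-proteinase, and *Ece1* (−0.79, adjusted p = 8.6e-04) for an enzyme that makes endothelin. Without replicate 2 of *siNcor1* at day 6, *Pappa2* (0.326) and *Tll1* (0.0527) did not pass, and *Pappa2* did not in 4 of the 8 such fits. Among 21 genes for proteins shed by ADAM10 and ADAM17, 11 were lower and 0 higher at day 6, including the EGF-family ligands *Nrg1* (−1.17, adjusted p = 0.0027), *Hbegf* (−1.02, adjusted p = 0.0022) and *Ereg* (−0.99, adjusted p = 0.022) and the syndecan *Sdc4* (−1.03, adjusted p = 4.4e-04), with the call of *Ereg* lost without replicate 2 of *siNcor1* (0.197) or replicate 1 of those labelled *siOct4* (0.118) at day 6. *Cdh1*, for E-cadherin, which is also an epithelial marker, was lower already at day 3 (−2.02, adjusted p = 6.1e-05). Of 20 genes for matrix substrates, 2 were higher at day 3 (*Tnc* 0.77, adjusted p = 0.046, and *Fbln2* 0.77, adjusted p = 0.023), and at day 6 15 were lower and 1 was higher. The day 3 calls of both were lost without any library of that day, with adjusted p up to 0.447 for *Tnc* and 0.321 for *Fbln2* without replicate 2 of *siNcor1*. Lower were *Thbs1* (−1.41, adjusted p = 7.2e-04), *Tnc* (−1.23, adjusted p = 4.9e-04) and *Col1a1* (−1.01, adjusted p = 0.002), and *Col1a1* and *Fbln2* are also among the fibroblast markers. *Acan*, for aggrecan, was the gene that was higher, at 0.54 and 0.20 in *siNcor1* and 2.81 and 2.48 in the libraries labelled *siOct4* (2.27, adjusted p = 4.2e-04). Among 15 AP-1, ETS and related transcription factors, 0 were called at day 3 and 8 were lower at day 6, *Fosl2* (−0.95, adjusted p = 6.6e-04), *Etv1* (−0.91, adjusted p = 0.0034), *Ets1* (−0.85, adjusted p = 8.6e-04) and *Runx2* (−0.79, adjusted p = 0.0014) among them, of which *Etv1* did not pass without replicate 2 of *siNcor1* at day 6 (0.0602).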

How the data were processed

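RNA-seq of 4 groups of 2 libraries was used. Per the labels and the methods, the authors depleted ribosomal RNA from 200 ng of total RNA, sequenced paired ends, aligned the reads to mm10 with STAR 2.5.2b and deposited log2-cpm values computed with edgeR 3.20.9. The read counter and its strand setting are not given in the sources used here.

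Whole reads were recovered from 100% of the values (tolerance 0.1 read), which gave the depth, and precision rests on 2 libraries a group. The lowest value, −2.87, stands for 0 reads. The replicates of a group differed beyond counting error. Chi-square over degrees of freedom was 18.7 for the day 6 libraries labelled *siOct4* and 8.44 to 9.43 for the other groups. Of 18990 genes, 18969 matched GENCODE M21 (GRCm38), whose exon unions gave lengths.

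All 4 groups were fitted together with limma 3.58.1 (R 4.3.3), from the log2 values as deposited (lmFit, eBayes with a trend, two-sided, Benjamini-Hochberg over the 13866 genes whose mean was 1 CPM or more, called under 0.05). A fold change is a difference of deposited log2 values, which understates changes of low genes. The script was tested on simulated data for the day 6 comparison of the knockdowns. It recovered 98.5% of log2 changes of 2, 85.1% of those of 1 and 24.2% of those of 0.5. Of its 152 calls there 8.55% were false. The simulation changed 67, 67 and 66 of 13866 genes by these amounts and used 1 spread for all genes and groups. In the data 30.7% of genes were called, and replicates of the day 6 libraries labelled *siOct4* differed more than those of other groups. These shares are therefore not estimates for the data. Each library's values are given for every TIMP, *Mmp2*, *Mmp14*, *Adam10*, *Adam17* and every member called between the knockdowns or in the change of that difference. Of each list up to 4 called genes with the largest changes are named, and any called at day 3. One listed gene is counted but not reported here. Members and lists were chosen with earlier results of these data known.

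Alternatives were a fit without trend, median centring, no filter, a 10 CPM filter, quantile normalization, pseudocounts of 0.1 or 1 CPM, the replicate block, only the groups compared, voom on recovered reads, totals without *Gm26917*, and 1 library left out, as well as totals without normalization factors, chosen after seeing the data. Figures were drawn with matplotlib 3.10.9.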

Additional observations from a re-analysis of the deposited data

Results flagged for a closer look

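The difference between the knockdowns, libraries labelled *siOct4* minus *siNcor1*, changed between day 3 and day 6 for 24 of the 44 tested genes by the test of that change itself. The changes on the log2 scale towards lower values in the libraries labelled *siOct4* were those of *Mmp13* (−1.88), *Adam12* (−1.80), *Timp3* (−1.76), *Adamts9* (−1.70), *Timp2* (−1.45), *Mmp14* (−1.36), *Mmp11* (−1.33), *Adamtsl5* (−1.33), *Mmp3* (−1.29), *Adamts1* (−1.25), *Adamtsl1* (−1.25), *Adamts5* (−1.24), *Adam9* (−1.16), *Mmp2* (−1.15), *Adam19* (−1.07), *Adam23* (−1.05), *Mmp19* (−1.03), *Timp1* (−1.01), *Adamts14* (−0.99), *Mmp23* (−0.99), *Adamts4* (−0.96), *Adamts2* (−0.96) and *Adamts12* (−0.90). *Adamts20* (1.68) changed the other way. The call of *Mmp3* had an adjusted p of 0.0495 and was lost in 11 of its alternatives (−0.69, adjusted p = 0.0638, without replicate 1 of the day 6 libraries labelled *siOct4*), and that of *Mmp11* in 8 (−0.89, adjusted p = 0.193, without replicate 2 of *siNcor1* at day 3). Calls of *Timp1*, *Mmp13*, *Mmp19*, *Mmp23*, *Adamts4*, *Adamts12*, *Adamts14* and *Adamts20* were lost when a single library was left out, with adjusted p between 0.0505 and 0.0857. The summed fibroblast and epithelial markers changed between the same groups, and their part in these results was not tested.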

How the results depend on the processing

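Called members numbered 0 between the knockdowns at day 3 with all libraries, and 1 with totals without *Gm26917*, 2 with only the groups compared, 1 with the replicate block, and 0 to 3 with 1 library left out. At day 6 the 28 calls were 18 to 29 with 1 library left out (18 without replicate 2 of *siNcor1* at day 6, where 10.1% of all genes were called), 25 with voom, 23 without trend, 32 without normalization factors and 29 with the replicate block. The change of the difference was called for 15 to 27 members (15 without replicate 2 of *siNcor1* at day 3, with 7.28% of all genes called), and for 27 with the block. Between the days, calls were 21 to 30 in *siNcor1* and 28 to 34 in the libraries labelled *siOct4*. The block rests on replicate numbers only, since deviations of libraries with the same number correlated at only −0.0395 to 0.281. Single day 6 calls between the knockdowns also depended on the processing. Without trend those of *Timp1* (adjusted p = 0.0633), *Mmp11* (0.113), *Mmp16* (0.0763), *Adamts12* (0.0624) and *Adamtsl3* (0.0834) were lost. The last 4 were also lost with voom (0.064, 0.0847, 0.0528 and 0.176). The fall of *Adam23* in the libraries labelled *siOct4* was lost with quantile normalization (−0.15, adjusted p = 0.368).

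Of the 30 tested members whose values are given for every library, sign changed only for values that were not called, as follows, and the other 14 were examined for changed calls only. In *siNcor1* between the days *Mmp11* became 0.021 with median centring and 0.055 without *Gm26917*, *Adamts1* 0.038, 0.073 and, with quantile normalization, 0.196, and *Adamts15* −0.011 with quantile normalization. In the libraries labelled *siOct4* *Adamts15* became 0.044 with median centring and 0.106 without *Gm26917*, and *Mmp19* −0.021 and *Adamts2* −0.018 without normalization factors. At day 3 *Adamts20* became 0.0084 with quantile normalization. With 1 library left out the ranges crossed 0 at day 3 for *Mmp19* (−0.016 to 0.304), *Adamts20* (−0.306 to 0.275) and *Adamtsl3* (−0.043 to 0.742). In *siNcor1* they did for *Mmp11* (−0.466 to 0.424), *Adamts4* (−0.075 to 0.195), *Adamts15* (−0.064 to 0.293) and *Adamts1* (−0.040 to 0.033). In the libraries labelled *siOct4* they did for *Mmp19* (−0.193 to 0.270), *Adamts15* (−0.288 to 0.234), *Adamts2* (−0.035 to 0.120), *Adamts20* (−0.548 to 0.032) and *Mmp13* (−0.761 to 0.224). For the change of the difference they did for *Adamts15* (−0.402 to 0.119) and *Adam17* (−0.212 to 0.0088). The cause was not tested. Totals without *Gm26917* moved the median of all genes between the days in the libraries labelled *siOct4* from −0.079 to 0.055.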
